A study of Mus musculus with 46 samples.

Results

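The genes described here are 7 chemokine receptors carried by leukocytes that enter tumors: Ccr1, Ccr2, Ccr3, Ccr6, Cxcr4, Cxcr6 and Cx3cr1. They were chosen by name, as 7 of the 46011 complete entries of a table of RNA-seq read counts, without use of a threshold on their values. RNA had been sequenced from 46 AB1-HA tumors, a murine mesothelioma line carrying the influenza haemagglutinin antigen, grown under the skin of male BALB/c mice aged 8 to 10 weeks. Each mouse gave 1 tumor, and the fate of the tumor it kept after cyclophosphamide (CY, 200 mg/kg) placed the removed tumor in its group. Complete responders (CR) were compared with PR mice, which the paper calls progressors and the sample labels partial responders. The groups were 13 CR and 13 PR tumors removed at Day-1, before any CY, 5 CR and 5 PR tumors at Day+3, and 5 CR and 5 PR tumors at Day+7, on days 9, 13 and 17 of tumor growth. All groups shared the cell line, the site and the mouse strain, and the 3 times were sampled from different mice. No untreated tumors of days 13 and 17 were among these samples, so time after CY, tumor age and the deeper sequencing of the later tumors cannot be told apart.

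Chemokine receptors are G protein-coupled receptors through which leukocytes follow gradients of small secreted chemokines into tissue. CCR2, the receptor for CCL2, CCL7 and CCL12, is needed for classical monocytes to leave the bone marrow and is lost as they mature, whereas CX3CR1, the receptor for the membrane-bound chemokine CX3CL1, marks patrolling monocytes and many resident macrophages. CCR1 binds CCL3, CCL5, CCL6 and CCL9 and is carried by monocytes and neutrophils, CCR3 is the eotaxin receptor of eosinophils, and CCR6 binds CCL20 and is found on B cells, Th17 cells and some regulatory T cells. CXCR6, the receptor for CXCL16, marks activated and tissue-resident T and NK cells, and CXCR4, the receptor for CXCL12, holds cells in the marrow and is expressed by most leukocytes and by many other cells.

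The members are listed with their GRCm38 positions from the GENCODE vM21 annotation. Cxcr6 (chr9:123806475-123811760, plus strand), Ccr1 (chr9:123962124-123968692, minus strand), Ccr3 (chr9:124021972-124031689, plus strand) and Ccr2 (chr9:124101950-124113557, plus strand) stand in this order in a cluster of receptor genes. Cx3cr1 (chr9:119901616-120069879, minus strand) is elsewhere on the same chromosome, Ccr6 is at chr17:8236043-8257141 (plus strand) and Cxcr4 at chr1:128588199-128592293 (minus strand). The counts came from kallisto, which assigns reads to transcripts by stretches of 31 bases, so identical stretches in neighbouring receptor genes bear on how their reads were divided. Of the 31-base stretches in its transcripts, Ccr2 shared 235 of 6745 (3.48%) with other genes, and Cx3cr1 shared 146 of 4446 (3.28%) with several genes. The Cx3cr1 gene also overlaps several genes on both strands, among them Gm33858 on the opposite strand, with which it shared 49 stretches. Cxcr6 shared 0 of 1930, although its gene overlaps Fyco1 on the opposite strand, and the remaining 4 members shared between 0.111% and 0.905%. The longest identical run within the coding sequences of the neighbours Ccr1 and Ccr3 is shown in lower case because no part of it is singled out.
Ccr1 and Ccr3, 47 bases: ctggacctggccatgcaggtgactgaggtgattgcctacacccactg
In Ccr1 it covers positions 835 to 881 of 1068 coding bases. The run is shorter than a read at either length that the sources give.

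The 250 bases before the RefSeq start sites of all 7 members (8 windows, Ccr6 having 2; GRCm38.p6) were searched on both strands for fixed letters, as a description of the regions from which these receptors are transcribed. The windows of Ccr1 and Ccr3, neighbours that moved in opposite directions at Day+7, and of Cxcr4, the member with the broadest expression, are shown on the strand of the gene with the matches of 4 motifs in capitals. The motif of PU.1 was searched as GAGGAA and that of AP-1 as TGANTCA. The TATA box was searched as TATAAA and the box bound by Sp1 as GGGCGG.
Ccr1, chr9:123968693-123968942, minus strand: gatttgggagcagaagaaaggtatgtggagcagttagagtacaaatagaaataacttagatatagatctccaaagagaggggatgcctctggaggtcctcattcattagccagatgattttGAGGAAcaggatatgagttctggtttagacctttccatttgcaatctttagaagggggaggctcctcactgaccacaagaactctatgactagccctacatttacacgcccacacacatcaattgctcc
Ccr3, chr9:124021721-124021970, plus strand: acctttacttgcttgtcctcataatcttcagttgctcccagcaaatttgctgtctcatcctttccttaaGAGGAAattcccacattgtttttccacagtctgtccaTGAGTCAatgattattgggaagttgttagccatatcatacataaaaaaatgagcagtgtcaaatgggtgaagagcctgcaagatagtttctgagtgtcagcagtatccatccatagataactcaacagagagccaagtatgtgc
Cxcr4, chr1:128592300-128592549, minus strand: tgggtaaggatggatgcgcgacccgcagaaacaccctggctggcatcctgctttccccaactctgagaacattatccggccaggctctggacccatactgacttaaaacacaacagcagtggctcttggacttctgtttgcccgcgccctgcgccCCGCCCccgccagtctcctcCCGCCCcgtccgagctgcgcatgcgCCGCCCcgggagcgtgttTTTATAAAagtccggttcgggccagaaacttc
The Cxcr4 window was the member window with TATAAA (2 overlapping matches, 1 on each strand) and GGGCGG (3 matches), and it had 61.2% G and C, against a median of 52.4% over 32851 RefSeq windows of the same length. GAGGAA stood in 3 of the 8 member windows (Ccr1, Ccr3 and 1 of Ccr6) and in 23.3% of all windows. TGANTCA stood in 1 (Ccr3), against 6.75% of all windows, TATAAA in 12.4% and GGGCGG in 32.7%. The shorter ETS core GGAA, which lies inside GAGGAA, was in all 8 member windows and in 93.4% of all windows. Ccr1 and Ccr3 thus shared GAGGAA in windows of different sequence, and these matches are letters, not measured binding.

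The counts over the genes covered summed to between 10227681 and 14218987 reads per tumor at Day-1, between 15412744 and 18748688 at Day+3 and between 16047930 and 19446596 at Day+7. The table analysed here ends within Pax7 in alphabetical order, so these are partial totals, and markers with later symbols were not analysed here. No pair of the 46 libraries was identical. Every member was counted in every tumor, from 2 reads (Ccr6 in a Day+3 tumor) to 20452 reads (Ccr2 in a Day+7 tumor), and all 7 passed edgeR's filter on low counts in each comparison. The mesothelioma marker Msln had a median of 375 CPM at Day-1, 351 CPM at Day+3 and 58.7 CPM at Day+7, while Krt18, Krt19 and Muc16 were too low to be tested. Keratin Krt5, a skin gene, was above 10 CPM in 16 tumors, 10 of them at Day-1. In bulk tumor RNA, fewer cells of a type and less RNA per cell cannot be told apart.

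Levels are given as CPM, the reads of a gene scaled to a common library total, with library sizes adjusted by TMM so that a few abundant genes do not shift the rest. Changes are log2 fold changes with their standard errors (SE) from edgeR's quasi-likelihood test, called where the Benjamini-Hochberg false discovery rate (FDR) over all genes tested was under 0.1, the study's own threshold. Changes with time weighted CR and PR tumors equally. The plot of every tumor by group shows the members' levels together.

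**Figure D1:**
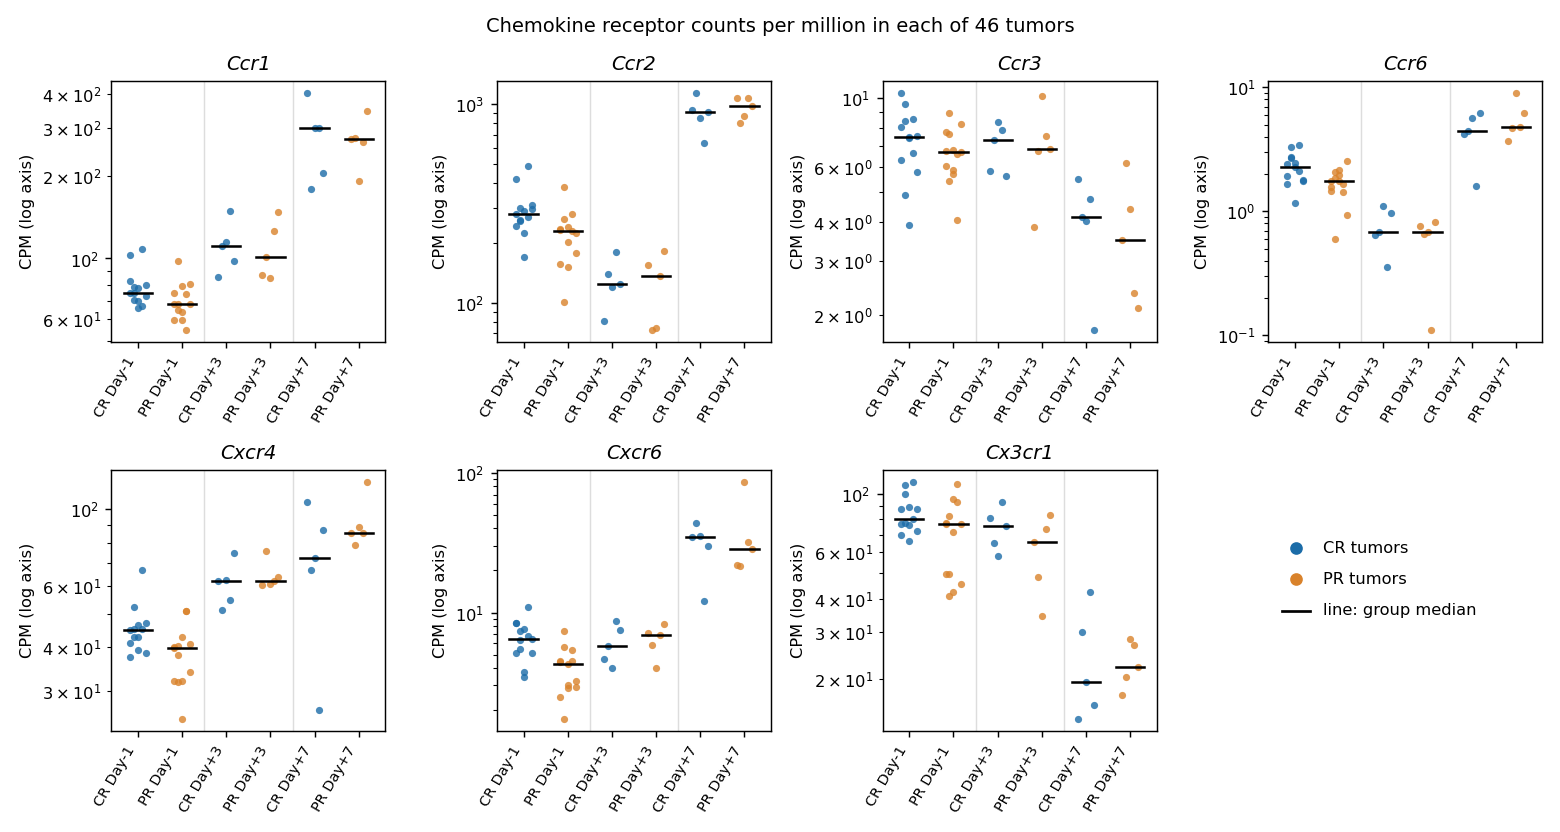
Each panel plots the CPM of 1 receptor (log axis) in 46 tumors, by response and time, with CR in blue, PR in orange and a line at the group median. Ccr1, Ccr2 and Cxcr6 at Day+7 lie above every Day-1 tumor, Ccr2 and Ccr6 dip at Day+3, and Cx3cr1 drops at Day+7 to a median of 21.2 CPM, against 77.2 CPM at Day-1.

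Of the receptors of the monocyte lineage, Ccr2 fell at Day+3 and rose far above its starting level at Day+7. Before CY it ranged from 101 to 487 CPM with a median of 252 CPM (n = 26). At Day+3 the CR tumors had 80.7, 120, 124, 140 and 179 CPM and the PR tumors 72.6, 74.8, 136, 155 and 182 CPM. At Day+7 the CR tumors had 641, 848, 913, 934 and 1140 CPM and the PR tumors 805, 874, 980, 1070 and 1070 CPM. All 10 Day+3 tumors were below the Day-1 median, 3 of them below every Day-1 tumor, and all 10 Day+7 tumors were above every tumor of both earlier times. The log2 fold change was -1.06 ± 0.16 (SE) at Day+3 against Day-1 (adjusted p = 8.51e-08) and 1.86 ± 0.14 at Day+7 against Day-1 (adjusted p = 1.48e-16). Between Day+7 and Day+3 it was 2.92 ± 0.19, a 7.56-fold difference (adjusted p = 4.73e-18).

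Cx3cr1 moved the other way at Day+7. It ranged from 41.1 to 111 CPM at Day-1 (median 77.2) and from 34.4 to 92.8 CPM at Day+3 (median 69.6), and the 2 ranges overlapped almost fully. At Day+7 the CR tumors had 14.1, 15.9, 19.5, 29.9 and 42.5 CPM and the PR tumors 17.4, 20.3, 22.1, 26.7 and 28.2 CPM. Of the 10 Day+7 tumors, 9 lay below every Day-1 tumor, and the exception was the CR tumor CT7_6 at 42.5 CPM. On the log2 scale the change was -0.24 ± 0.15 at Day+3, which did not pass the test (adjusted p = 0.132), and -1.71 ± 0.16 at Day+7, 3.28-fold lower than at Day-1 (adjusted p = 4.15e-13).

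The ratio of Ccr2 to Cx3cr1 counts within a tumor set these changes side by side. The counts are not scaled for gene length, so the ratio serves to compare tumors and not the levels of the 2 genes. It had a median of 3.17 at Day-1 (2.47 to 5.99), 2 at Day+3 (0.994 to 2.36) and 41.8 at Day+7 (15.1 to 66.5). No Day+7 tumor came near the range of the earlier tumors, and all Day+3 tumors were below all Day-1 tumors. The ratio was formed after the levels had been seen and carries no test.

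**Figure D2:**
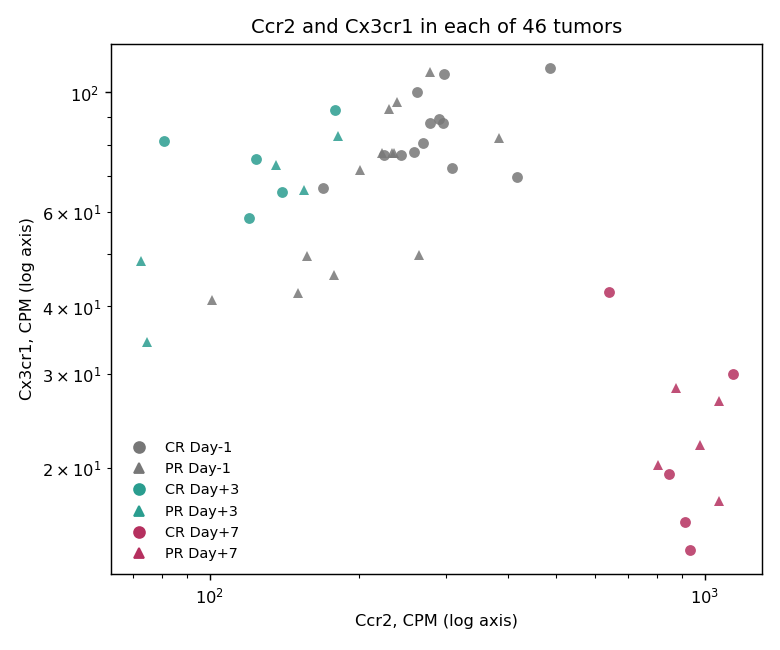
Each point is 1 of 46 tumors, with Ccr2 CPM on the horizontal log axis, Cx3cr1 CPM on the vertical log axis, colours for time, circles for CR and triangles for PR. The Day+7 tumors stand apart at high Ccr2 (641 to 1140 CPM) and low Cx3cr1 (14.1 to 42.5 CPM).

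The macrophage and monocyte genes measured beside them did not follow Cx3cr1 down. Of 16 such genes, 14 rose and 1 fell at Day+3, and 16 rose at Day+7. Adgre1, which encodes the macrophage antigen F4/80, had a log2 fold change of 0.99 ± 0.10 at Day+3 and 1.80 ± 0.10 at Day+7. Csf1r, the receptor for colony stimulating factor 1, had 0.23 ± 0.05 at Day+3 and 1.17 ± 0.05 at Day+7. Ly6c2, a marker of classical monocytes, had a median of 7.66 CPM at Day-1, 9.58 CPM at Day+3 and 215 CPM at Day+7, with a log2 fold change of -0.08 ± 0.26 at Day+3 and 4.36 ± 0.23 at Day+7. Ly6c2 did not show the Day+3 fall of Ccr2, which left Ccr2 apart from most of its lineage genes at that time. The 6 red blood cell genes did fall with it: 5 were lower at Day+3, and their summed level was 17.6 to 120 CPM at Day-1, 3.03 to 7.75 CPM at Day+3 and 228 to 561 CPM at Day+7. Their part in the Ccr2 result was not tested.

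Ccr1, the third receptor of myeloid cells here, rose at each step. Its median was 73.3 CPM at Day-1 (54.7 to 108, n = 26), 106 CPM at Day+3 (85 to 149, n = 10) and 274 CPM at Day+7 (179 to 403, n = 10). All 10 Day+3 tumors were above the Day-1 median and 5 above every Day-1 tumor, and at Day+7 all 10 were above every earlier tumor. Ccr1 had a log2 fold change of 0.52 ± 0.10 at Day+3 (adjusted p = 1.16e-05) and 1.87 ± 0.10 at Day+7 (3.67-fold, adjusted p = 2.39e-22). Neutrophil genes, another source of Ccr1, rose in 5 of 9 at Day+3 and in 8 of 9 at Day+7, while 1 fell at each time. At Day+7 that was Mmp9, a metalloproteinase gene (-1.57 ± 0.25), and the summed level of the list had a median of 791 CPM at Day-1, 2110 CPM at Day+3 and 699 CPM at Day+7. Ly6g, a defining gene of neutrophils, had 0 counts in 20 of 26 Day-1 tumors and 4 of 10 Day+3 tumors, and 40 to 311 counts in the Day+7 tumors, so its part in the Ccr1 increase at Day+7 was not tested.

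Of the receptors of lymphocytes, Cxcr6 showed the largest increase of the 7 members at Day+7, and did not pass the test at Day+3. It ranged from 1.73 to 11 CPM at Day-1 (median 5.11) and from 4 to 8.68 CPM at Day+3 (median 6.38). At Day+7 the CR tumors had 12.1, 30.1, 34.9, 35.1 and 44.1 CPM and the PR tumors 21.5, 22, 28.3, 32 and 86.7 CPM. Every Day+7 tumor was above every earlier tumor, although CT7_6 (CR, 12.1 CPM) came close to the highest Day-1 tumor and CT7_7 (PR, 86.7 CPM) was far above the rest. The log2 fold change was 0.24 ± 0.20 at Day+3, which did not pass the test (adjusted p = 0.274), and 2.75 ± 0.18 at Day+7, a 6.71-fold increase (adjusted p = 3.51e-18). Without CT7_6 it was 2.86 at Day+7, and without CT7_7 it was 2.47.

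Ccr6 was measured at low counts and dipped before it rose. It had 8 to 43 reads per tumor at Day-1, 2 to 20 reads at Day+3 and 28 to 146 reads at Day+7. These were medians of 1.9, 0.676 and 4.73 CPM. All 10 Day+3 tumors were below the Day-1 median, and 9 of 10 Day+7 tumors were above every Day-1 tumor, with CT7_6 (1.61 CPM) within the Day-1 range. The log2 fold change was -1.57 ± 0.22 at Day+3 (2.97-fold lower, adjusted p = 3.02e-08), 1.35 ± 0.18 at Day+7 against Day-1 (adjusted p = 3.29e-09) and 2.92 ± 0.25 at Day+7 against Day+3 (7.58-fold, adjusted p = 2.2e-14).

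The lymphocyte lists did not all move as these receptors did. Of 14 T cell genes, 7 fell and 0 rose at Day+3, and 14 rose at Day+7, and the summed level of the list was 61.2 to 299 CPM at Day-1, 63.4 to 146 CPM at Day+3 and 232 to 995 CPM at Day+7. Of 6 regulatory T cell genes 5 fell at Day+3, Foxp3 by 1.62 ± 0.17 on the log2 scale. At Day+7 Foxp3 was still 0.74 ± 0.16 lower than at Day-1, while Ccr6 was higher. The rest of that list was not lower at Day+7 than at Day-1. Capg (1.36 ± 0.05), Ikzf4 (1.26 ± 0.15), Il2ra (1.12 ± 0.15) and Ikzf2 (0.42 ± 0.15) rose, and Ctla4 (0.08 ± 0.19) was not called. Of the 6 NK cell genes tested 2 rose and 1 fell at Day+3, and all 6 rose at Day+7, among them the granule protease gene Gzma by 4.85 ± 0.21. Of 7 B cell genes tested 4 rose and 2 fell at Day+7. The part of these cells in the changes of Cxcr6 and Ccr6 was not tested.

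Cxcr4 rose at both times, by less than the other rising members at Day+7. Its median was 41 CPM at Day-1 (24.9 to 66.6), 62.2 CPM at Day+3 (51.4 to 75.7) and 85.4 CPM at Day+7. The CR tumors of Day+7 had 26.4, 67, 72.5, 87 and 105 CPM and the PR tumors 78.8, 85.3, 85.4, 89.1 and 120 CPM. CT7_6, at 26.4 CPM, was the lowest of the 20 tumors taken after CY, and the other 9 Day+7 tumors were above every Day-1 tumor. Cxcr4 had a log2 fold change of 0.55 ± 0.11 at Day+3 (adjusted p = 3.14e-05), 0.95 ± 0.11 at Day+7 (1.94-fold, adjusted p = 1.17e-10) and 0.41 ± 0.14 at Day+7 against Day+3 (adjusted p = 0.00737).

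Ccr3, the eosinophil receptor, was low throughout and fell at Day+7. It had medians of 6.77 CPM at Day-1 (3.89 to 10.4), 7.1 CPM at Day+3 (3.84 to 10.2) and 4.08 CPM at Day+7 (1.79 to 6.2). All 10 Day+7 tumors were below the Day-1 median and 4 below every Day-1 tumor, so the ranges overlapped in part. The log2 fold change was -0.04 ± 0.15 at Day+3, which did not pass the test (adjusted p = 0.832), and -0.86 ± 0.16 at Day+7, 1.81-fold lower (adjusted p = 3.97e-06). Of 4 eosinophil genes tested 3 rose at Day+7. Of the 2 that define the lineage, the peroxidase gene Epx had a median of 0.925 CPM at Day+7 and 0.0776 CPM at Day-1 (log2 fold change 3.17 ± 0.39), and the interleukin 5 receptor gene Il5ra had 0.658 CPM at Day+7 and 0.675 CPM at Day-1 (log2 fold change -0.08 ± 0.25). The others that rose were Ear2 (log2 fold change 7.19 ± 0.22) and Ear6 (4.95 ± 0.40). The summed level of the 5 listed eosinophil genes had a median of 2.97 CPM at Day-1 and 337 CPM at Day+7. Ccr3 therefore went against the eosinophil genes that rose, of which Epx stayed near 1 CPM.

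Counted together, 4 of the 7 members were called at Day+3 against Day-1, 2 higher (Ccr1, Cxcr4) and 2 lower (Ccr2, Ccr6), where 77.6% of the 13194 genes tested were called (37.9% higher and 39.6% lower). At Day+7 against Day-1 all 7 were called, 5 higher and 2 lower (Ccr3, Cx3cr1), where 85.9% of genes were called (43% higher and 42.8% lower). Between Day+7 and Day+3 all 7 were called in the same directions as against Day-1, where 75.3% of genes were called (38.8% higher and 36.5% lower). The first 2 of these comparisons share the Day-1 tumors. With so many genes called, being called says little about the members, and their sizes and directions are the description. The median log2 fold change of the members was -0.04 at Day+3 and 1.35 at Day+7, against -0.02 and -0.01 over all genes. At Day+7, 3 members (Ccr1, Ccr2, Cxcr6) had all 10 tumors above all 26 Day-1 tumors, as did 20.1% of genes in that direction, and 0 members had all 10 below them, as 19.2% of genes did. Against Day+3, 4 members (with Ccr6) had all Day+7 tumors higher and 0 all lower, against 18% and 18.8% of genes.

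**Figure D3:**
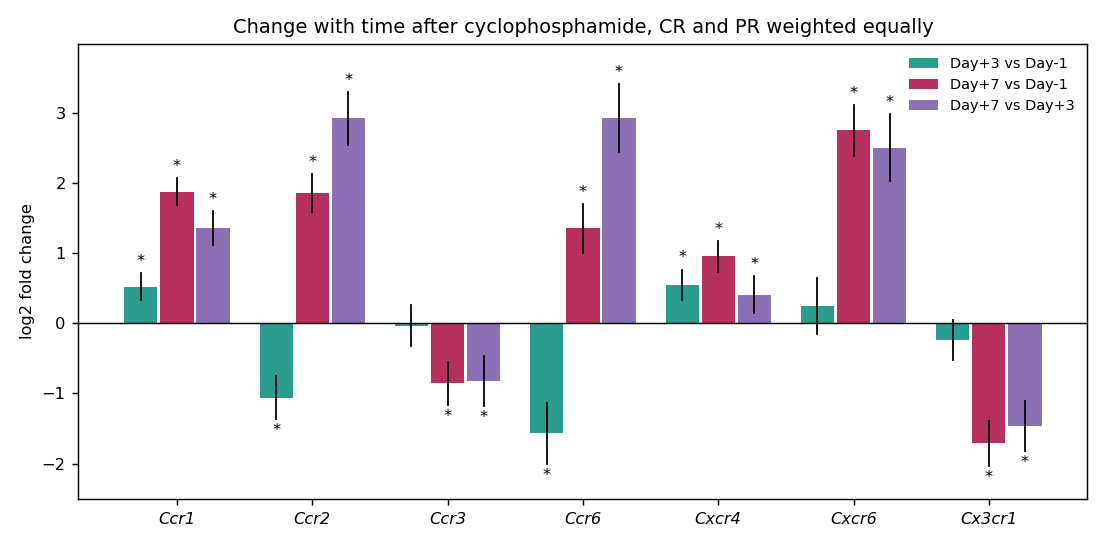
Bars show the log2 fold change of each receptor for Day+3 against Day-1, Day+7 against Day-1 and Day+7 against Day+3. Lines show 95% confidence intervals taken from the SE by a normal approximation, and asterisks mark an FDR under 0.1. Ccr2 and Ccr6 point down at Day+3 and up at Day+7, while Cx3cr1 and Ccr3 point down at Day+7.

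The increases at Day+7 went with a general increase of leukocyte genes. The summed level of 14 leukocyte genes was 1690 to 3020 CPM at Day-1, 2230 to 3050 CPM at Day+3 and 5660 to 10100 CPM at Day+7, and all 14 rose at Day+7. With the leukocyte score as a covariate, 3 members were called at Day+7 against Day-1, where 39.2% of genes were (22.2% lower), and all were lower: Ccr2 (log2 fold change -1.17, adjusted p = 0.00991), Cxcr6 (-1.31, adjusted p = 0.092) and Cx3cr1 (-2.07, adjusted p = 0.00451). In that fit Ccr1, Ccr6, Cxcr4 and Ccr3 were not called, and between Day+7 and Day+3 only Cx3cr1 was, where 21.9% of genes were. The Day-1 and Day+7 ranges of the leukocyte level did not overlap. The slope was fitted within the groups, and these adjusted values carry it across the gap between the times. Among the members' changes at Day+7, the fall of Cx3cr1 was the one that kept its direction and its call with and without the covariate. At Day+3 against Day-1, where the leukocyte ranges overlapped, Ccr1, Ccr2, Ccr6 and Cxcr4 kept theirs too. In that fit 10176 of 13194 genes were called.

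The ligands of the members rose as a group. Of 15 ligand genes 14 could be tested, and all 14 rose at Day+3 and at Day+7 (median log2 fold change 0.92 and 3.13), while Ccl20, the ligand of CCR6, had 0 to 3 reads per tumor. For CCR2, the ligand gene Ccl2 had medians of 56.9 CPM at Day-1, 120 CPM at Day+3 and 657 CPM at Day+7, so at Day+3 it rose (log2 fold change 0.97 ± 0.13) while its receptor fell. For CCR1, Ccl5 had 12.7 CPM at Day-1, 24.9 CPM at Day+3 and 361 CPM at Day+7. For CCR3, the eotaxin genes Ccl11 and Ccl24 rose at Day+7, by 3.15 ± 0.13 and 6.54 ± 0.17 on the log2 scale, while Ccr3 fell. Ccl24 had a median of 1.85 CPM at Day-1, 4.78 CPM at Day+3 and 191 CPM at Day+7. The CXCR6 ligand gene Cxcl16 and the CXCR4 ligand gene Cxcl12 rose at Day+7 with their receptors, by 2.37 ± 0.12 and 1.92 ± 0.12. Cx3cl1, the ligand of CX3CR1, peaked at Day+3, with 119 CPM at Day-1, 231 CPM at Day+3 and 145 CPM at Day+7, and was 0.48 ± 0.08 lower on the log2 scale at Day+7 than at Day+3.

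Among 16 other chemokine receptor genes, 14 were tested, of which 5 rose and 8 fell at Day+3 and 12 rose and 2 fell at Day+7. Like Ccr2 and Ccr6, the T cell receptors Ccr4 (-1.44 ± 0.22), Ccr8 (-1.55 ± 0.24) and Cxcr3 (-0.79 ± 0.21) fell at Day+3 and rose at Day+7 against Day-1. So did Ccr9 (-0.56 ± 0.16 at Day+3) and the scavenger receptor genes Ackr2 (-0.59 ± 0.24) and Ackr3 (-0.30 ± 0.12). Cxcr2, the neutrophil receptor, rose by 3.53 ± 0.16 at Day+7, Ccrl2 by 3.39 ± 0.15 and Ccr7, which guides dendritic cells to lymph nodes, by 2.30 ± 0.17. The 2 that fell at Day+7 with Ccr3 and Cx3cr1 were Ccr10, a receptor of skin-homing lymphocytes (-3.03 ± 0.17), and the scavenger receptor gene Ackr4 (-0.83 ± 0.34).

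The comparison of CR with PR tumors before CY asks whether the receptors differ before treatment in mice that go on to respond. All 7 members were higher in CR tumors, and none passed the FDR. At Day-1, where 1 of 10777 genes was called (0.00928%), 0 of 7 members were called by edgeR, 5 were at an unadjusted p under 0.05, all higher in CR, as were 9.25% of genes in that direction (17.5% in either), and DESeq2 called 1 member (4.11% of genes) and limma-voom 3 (11% of genes). With the title number as a covariate 1 member and 1.39% of genes were called. Leaving out CT12 gave 3 members and 8.07% of genes, and leaving out CT8, CT16 or CT25 gave 1 member each and 4.13%, 4.07% and 3.56% of genes, so the calls of the members came with those of many genes. Cxcr6 had the largest difference, with 3.47 to 11 CPM and a median of 6.41 CPM in CR tumors, and 1.73 to 7.43 CPM and a median of 4.28 CPM in PR tumors. Of 13 CR tumors 11 were above the PR median, and the groups overlapped. Its log2 fold change was 0.71 ± 0.19 (1.64-fold, p = 8.61e-04, adjusted p = 0.133), and the adjusted p was 0.0389 with DESeq2 and 0.022 with limma-voom.

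Ccr2 had 169 to 487 CPM and a median of 278 CPM in CR tumors, and 101 to 384 CPM and a median of 230 CPM in PR tumors, with 11 of 13 CR tumors above the PR median. Its log2 fold change was 0.41 ± 0.16 (adjusted p = 0.192, and 0.0525 with limma-voom). The changes of Ccr6 (0.45 ± 0.18), Cxcr4 (0.25 ± 0.10, adjusted p = 0.0701 with limma-voom) and Ccr1 (0.18 ± 0.08) had unadjusted p-values of 0.0151, 0.0172 and 0.0449. Cx3cr1 (0.28 ± 0.14) and Ccr3 (0.14 ± 0.13) had p = 0.0577 and 0.277. In Cx3cr1 the CR tumors ran from 66.5 to 111 CPM, while 5 of 13 PR tumors lay below them at 41.1, 42.4, 45.7, 49.6 and 49.9 CPM and the other 8 at 71.6 to 109 CPM. The upper PR tumors thus overlapped the CR tumors, and the lower 5 formed a gap of their own.

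Several lists were also higher in CR at Day-1, and 0 of their genes passed the FDR with edgeR. The median log2 difference of the members was 0.28, against -0.01 over all genes, and the sums of the 14 leukocyte genes were 1860 to 3020 CPM in CR tumors and 1690 to 2660 CPM in PR tumors. All 14 leukocyte genes, all 14 T cell genes and all 16 monocyte and macrophage genes were higher in CR, with 10, 14 and 9 at an unadjusted p under 0.05. The 10 skeletal muscle genes were also all higher in CR (3 at an unadjusted p under 0.05), and Msln was at -0.26 ± 0.09 (adjusted p = 0.164). Apart from fits with scores as covariates, the part of these genes in the differences of the members was not tested. With the leukocyte score as a covariate the difference was 0.32 for Cxcr6 and 0.04 for Ccr2, and the adjusted p-values were 0.895 and 0.982. In that fit 0 of 10777 genes were called, so no member was. Within title numbers up to 14, within those above 14 and in every other alternative all 7 differences kept their sign.

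After CY the members of CR and PR tumors were not told apart. At Day+3 and at Day+7, 0 of 7 members were called by edgeR and 0 were at an unadjusted p under 0.05, with 0% of genes called and 2.16% and 2.84% of genes at an unadjusted p under 0.05, and DESeq2 and limma-voom also called 0 members (0.0253% and 0% of genes at Day+3, 0.0426% and 0.00853% at Day+7). At Day+3 the largest differences were those of Ccr6 (0.33 ± 0.41) and Cx3cr1 (0.30 ± 0.20). At Day+7 the differences of Ccr6, Cxcr4 and Cxcr6 were -0.36 ± 0.34, -0.35 ± 0.28 and -0.29 ± 0.42, lower in CR. With 5 tumors a group the intervals were wide: the 95% interval at Day+7 ran from -1.11 to 0.54 for Cxcr6 and from -0.37 to 0.18 for Ccr2. These intervals were taken from the SE by a normal approximation, which makes them somewhat too narrow for so few tumors.

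**Figure D4:**
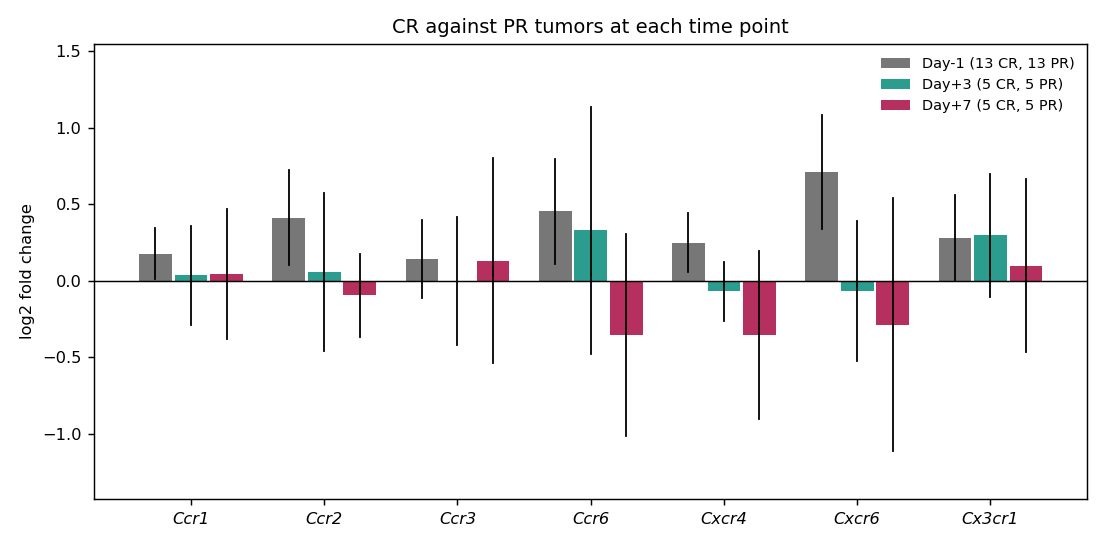
Bars show the log2 fold change of CR over PR tumors for each receptor at Day-1, Day+3 and Day+7. Lines are 95% confidence intervals taken from the SE by a normal approximation, and no bar carries an asterisk for an FDR under 0.1. The Day-1 line of Cx3cr1 thus stays above 0, although edgeR's test gave an unadjusted p = 0.0577. All 7 Day-1 bars are above 0, while the Day+7 bars of Ccr2, Ccr6, Cxcr4 and Cxcr6 are below it.

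The change of the CR to PR difference over time was tested directly. At Day+3 against Day-1, 0 of 7 members were called (0% of genes) and 0 were at an unadjusted p under 0.05, where 3.49% of genes were. DESeq2 and limma-voom called 0 members there (0.0227% and 0% of genes). At Day+7 against Day-1, 0 of 7 were called, where 0.00758% of genes were, and DESeq2 and limma-voom called 0 (0.303% and 0% of genes). There 3 members were at an unadjusted p under 0.05, all lower, where 11.5% of genes were (5.62% lower): Cxcr6 (-1.004 ± 0.39, p = 0.0143), Cxcr4 (-0.60 ± 0.23, p = 0.0114) and Ccr6 (-0.81 ± 0.37, p = 0.034). All 7 estimates were negative (-0.02 ± 0.31 for Ccr3), so the signed CR to PR difference was lower at Day+7 than at Day-1. In Ccr2, Ccr6, Cxcr4 and Cxcr6 the difference was above 0 at Day-1 and below 0 at Day+7. The CR tumor CT7_6 was the lowest Day+7 tumor in Cxcr6, Ccr6 and Cxcr4, and without it the 3 estimates were -0.79, -0.59 and -0.39, with Ccr6 at p = 0.102. Without the PR tumor CT7_7 Cxcr6 was at -0.43 (p = 0.227) and Ccr6 at -0.57 (p = 0.137), so that Cxcr4 was the 1 member left at an unadjusted p under 0.05.

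Before CY most pairs of members other than Ccr3 varied together from tumor to tumor. Over the 26 Day-1 tumors, 12 of the 21 pairs of members passed a Benjamini-Hochberg adjusted permutation p under 0.05 on Pearson's r of log2 CPM, 11 on Spearman's rho, and r ranged from -0.251 to 0.889. Ccr2 and Cxcr6 had r = 0.889 and rho = 0.852 (permutation p = 1e-05 for both, the smallest that 100000 permutations can give, adjusted p = 1.05e-04). Without the 2 tumors farthest from the median of Ccr2, r was 0.819, within CR tumors 0.758 and within PR tumors 0.931, and for title numbers up to 14 and above 14 it was 0.923 and 0.818. Cxcr4 and Cx3cr1 had r = 0.831 and rho = 0.843 (permutation p = 1e-05 for both, adjusted p = 1.05e-04), 0.796 without the 2 extreme tumors, 0.802 within CR and 0.81 within PR, and 0.855 and 0.806 by title number. Ccr2 and Cx3cr1, which parted at Day+7, had r = 0.704 and rho = 0.621 at Day-1 (adjusted permutation p = 3.67e-04 and 0.00472), 0.57 without the extreme tumors, 0.458 within CR and 0.725 within PR, and 0.821 and 0.427 by title number. Ccr3 passed with no member, and its highest r was 0.309, with Ccr1. Of the 15 pairs without Ccr3, 3 did not pass, all with Ccr1 (Ccr6, Cxcr4 and Cx3cr1, at r = 0.313, 0.41 and 0.382). Of the pairs, 7 passed without the 2 extreme tumors, 5 within CR and 3 within PR.

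**Figure D5:**
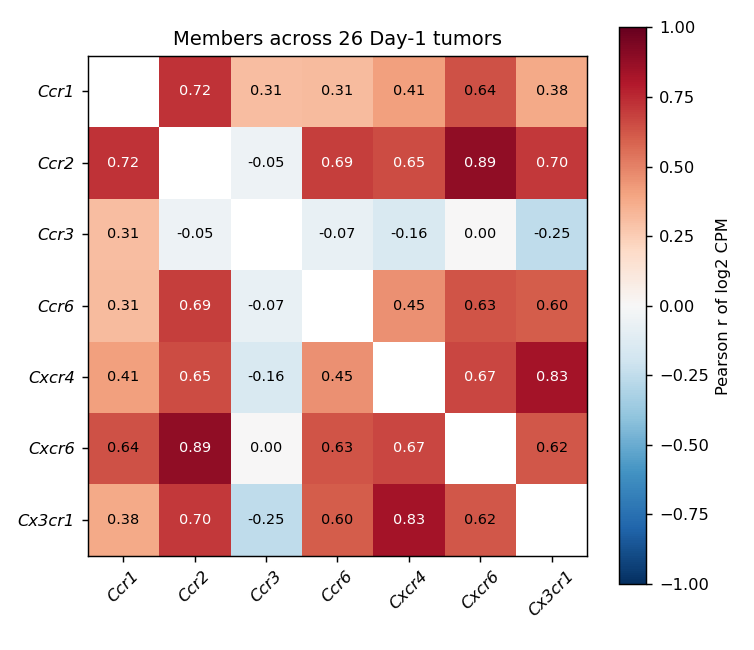
Each cell gives Pearson's r of log2 CPM between 2 receptors over the 26 Day-1 tumors, red for positive and blue for negative. The highest values are those of Ccr2 with Cxcr6 (0.889) and Cxcr4 with Cx3cr1 (0.831), and the row of Ccr3 stays near 0 or below apart from Ccr1.

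The genes whose levels followed each member most closely over the same 26 tumors, among 7954 compared by Spearman's rho, are given as a description, since all points share their libraries and their leukocyte content. For Ccr2 they were the leukocyte tetraspanin gene Cd53 (0.944), Neurl3 (0.942) and H2-Ea-ps (0.941), and for Cxcr6 Csf3r, the receptor of granulocyte colony stimulating factor (0.907), the myeloid transcription factor gene Irf8 (0.904) and Csf2rb2 (0.9). For Cx3cr1 they were the lipid transport genes Apoe (0.928), Abca1 (0.905) and Abca9 (0.893), and for Cxcr4 Adam11 (0.807), Apoe (0.804) and Cd22 (0.783). Apoe thus stood near the top for both members of the second closely related pair. Ccr1 was followed by Clec7a, the beta-glucan receptor dectin-1 of myeloid cells (0.828), Mfsd1 (0.782) and Olfr896-ps1 (0.765). Ccr6 was followed by Gpr155 (0.763), the B cell receptor chain gene Cd79b (0.755) and Ehhadh (0.753). The closest genes to Ccr3 were Cd200 (0.694), Cpeb4 (0.648) and Gstt2 (0.632), the lowest values of the 7 members.

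The scores of cell type lists over the Day-1 tumors placed the members differently. Ccr2 had rho = 0.879 with monocyte and macrophage genes, 0.874 with T cell genes and 0.87 with NK cell genes, and Cxcr6 had 0.826, 0.845 and 0.835. Cx3cr1 had 0.551 with monocyte and macrophage genes, 0.454 with T cell genes and 0.678 with dendritic cell genes, and Cxcr4 had 0.52, 0.435 and 0.638. Both had their highest rho with fibroblast genes, 0.694 for Cx3cr1 and 0.685 for Cxcr4. Ccr6 had 0.525 with B cell genes and 0.61 with T cell genes. Ccr3 lay between -0.182 (eosinophil genes) and 0.153 (neutrophil genes) over the 10 lists of leukocytes. The lists themselves rose and fell together in these tumors, so the values do not assign a receptor to a cell type.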

How the data were processed

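The counts deposited by the authors are raw, 1 row a gene symbol. The submitters' processing notes name kallisto (version not given in the sources used here) and the build GRCm38.p6. Read length differs between the labels and the paper, and whether strand was used is not given in the sources used here. The entry Pax7 was incomplete and was left out, leaving 46011 entries, of which 0 had no gene name. Groups were taken from the labels, and each tumor came from a different mouse. In R 4.3.3, the quasi-likelihood test of edgeR 4.0.16 (filterByExpr, TMM, glmQLFit with its legacy option, glmQLFTest) was used, with Benjamini-Hochberg adjusted p under 0.1 over all genes as the call. The contrast of CR with PR was fitted on the tumors of 1 time, while times and changes of the CR to PR difference came from a model of 6 groups over 46 tumors. Log2 CPM used a prior count of 2. Correlations used 100000 two-sided permutations. The tests were checked on simulated counts.

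The members were fixed by name, and the gene lists, including the genes named beside the members, were chosen with earlier results of these data known. All members are named, list genes by their role, and the 3 genes nearest to each member by Spearman's rho. Alternatives were DESeq2 1.42.0, limma-voom (limma 3.58.1) with quality weights, the revised quasi-likelihood method, DESeq2 size factors, a minimum of 1 CPM in place of the filter or none at all, a threshold of 0.05, leukocyte or skin and muscle scores as covariates, leaving out 16 tumors above 10 CPM of Krt5, all 46 tumors in 1 model, title numbers (up to 14 or above), the title number as a block, and each tumor left out in turn. Leaving out CT7_6 and CT7_7 was singled out after seeing the data. Stretches of 31 bases and positions came from GENCODE vM21, and promoter windows from RefSeq (GRCm38.p6), in which all 7 members were found. Some items withheld for evaluation are not reported here.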

Additional observations from a re-analysis of the deposited data

Results flagged for a closer look

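Of 28 groups of 5 tumors (7 receptors in the 4 groups after CY), 4 had a highest or lowest tumor whose gap to the next was above Dixon's 95% critical value of 0.71 of the group's range, where chance flags about 1 in 20 groups, 1.4 of these. All 4 were PR tumors. Cxcr6 was 86.7 CPM in the PR Day+7 tumor CT7_7, with the next tumor at 32 CPM (gap 0.839 of the range). Cxcr4 was 120 CPM in the PR Day+7 tumor CT7_10, with the next at 89.1 CPM (0.75), and 75.7 CPM in the PR Day+3 tumor CT3_5, with the next at 63.6 CPM (0.787). Ccr6 was 0.11 CPM in the PR Day+3 tumor CT3_7, a value of 2 reads, with the next at 0.653 CPM (0.773).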

How the results depend on the processing

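The counts of members called, their log2 fold changes and the count of passing correlations were recomputed under the alternatives listed in the processing summary. The values of other genes, the lists and the ratio were not. For the counts of members called, 83 of 88 alternative values other than leaving out a tumor stayed within 1.5 times the reported count. At Day-1, CR against PR, the count of 0 became 1 with DESeq2 (4.11% of genes called), 3 with limma-voom (11%) and 1 with the title number as a covariate (1.39%), against 0.00928% in the report, and it ranged from 0 to 3 with each tumor left out (1 without CT8, CT16 or CT25, and 3 without CT12, where 8.07% of genes were called). With the leukocyte score as a covariate the count was 3 in place of 7 at Day+7 against Day-1 (39.2% of genes called, in place of 85.9%) and 1 in place of 7 at Day+7 against Day+3 (21.9%, in place of 75.3%). The other counts ranged from 4 to 5 (Day+3 against Day-1) or did not change when a tumor was left out. Of 12 passing correlations, 5 passed within CR, 3 within PR, 3 in title numbers above 14 and 7 without the 2 extreme tumors.

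Of the recomputed member values, 33 had the opposite sign to the reported one, 6 of which had been called in the report. These were, with the leukocyte score, Ccr2 (log2 fold change -1.17), Ccr6 (-0.91), Cxcr4 (-0.42) and Cxcr6 (-1.31) at Day+7 against Day-1, and Cxcr4 (-0.81) and Cxcr6 (-1.10) at Day+7 against Day+3. The others, not all of them small, had not been called. With that score they were, for CR against PR, Ccr1 (-0.074) and Ccr2 (-0.097) at Day+3 and Cxcr6 (0.058) and Cx3cr1 (-0.18) at Day+7, Cxcr6 at Day+3 against Day-1 (-0.21), and for the changed difference Ccr6 at Day+3 (0.060) and Ccr1 (0.080) and Ccr2 (0.026) at Day+7. With limma-voom they were, for CR against PR, Ccr3 at Day+3 (0.070) and Ccr1 (-0.024), Cxcr6 (0.085) and Cx3cr1 (-0.20) at Day+7, Ccr3 at Day+3 against Day-1 (0.017), and for the changed difference Ccr6 (0.26) and Cx3cr1 (-0.13) at Day+3 and Ccr3 at Day+7 (0.10). Ccr3 also changed sign with no filter (0.0077, Day+3 against Day-1) and with a minimum of 1 CPM (0.00035, CR against PR at Day+3). With skin and muscle scores CR against PR at Day+3 was -0.22 for Ccr1 and -0.021 for Ccr2. Without the tumors above 10 CPM of Krt5 it was -0.031 for Ccr1 at Day+3 and 0.11 for Ccr2, -0.48 for Ccr3, 0.077 for Cxcr4 and -0.55 for Cx3cr1 at Day+7, Ccr3 at Day+3 against Day-1 was 0.084, and the changed difference of Ccr1 at Day+7 was 0.24. The causes were not tested.

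With each tumor left out, the values that crossed 0 were not called. For CR against PR at Day+3 they ranged from -0.082 to 0.17 (Ccr1), -0.085 to 0.23 (Ccr2), -0.15 to 0.17 (Ccr3) and -0.22 to 0.053 (Cxcr6). At Day+7 they ranged from -0.13 to 0.17 (Ccr1), -0.19 to 0.0038 (Ccr2), -0.014 to 0.39 (Ccr3), -0.44 to 0.27 (Cxcr6) and -0.20 to 0.24 (Cx3cr1). Ccr3 at Day+3 against Day-1 ranged from -0.13 to 0.037, and the changed difference from -0.32 to 0.027 (Ccr3), -0.40 to 0.040 (Ccr6) and -0.13 to 0.14 (Cx3cr1) at Day+3 and from -0.16 to 0.24 (Ccr3) at Day+7.

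Day+3 and Day+7 titles share the numbers 1 to 10. Same-numbered tumors came from different mice, their deviations from the group means correlated between -0.0812 and 0.11 over 10 pairs, and 2 were over 0.1, so the numbers do not pair the tumors. With the number as a replicate block 7 members were called at Day+7 against Day+3, as without it. Depth limits Ccr6 most, with 2 to 20 reads per tumor at Day+3.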
